A study of Rattus norvegicus with 6 samples.

Results

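Ribosomal protein genes, which encode the proteins of the cytoplasmic ribosome, were examined in the hippocampus of orchidectomized and sham-operated rats. They were chosen by name: every non-control probe whose gene symbol began with Rpl, Rps or Rplp and a digit was taken, the kinase genes that begin with Rps6k were left out, and the brightest probe stood for each gene. This gave 80 genes, measured by 139 probes, among 15148 genes that could be named on the array. The array files carried no gene name column, so symbols were reached through the RefSeq accession of each probe, which named 17996 of 30367 probes. Of the 80 genes, 40 belonged to the large subunit, 27 to the small subunit and 3 to the stalk, and 10 were paralogs or like genes; Rps4x, the X-linked copy of the S4 gene, was counted with the 10.

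A ribosome is built from ribosomal RNA and a fixed set of proteins in a small subunit, which reads the messenger RNA, and a large subunit, which joins amino acids; the stalk of the large subunit recruits the translation factors. The messengers of these proteins are among the most abundant in any cell, and their translation is regulated together by growth signals through a run of pyrimidines at the 5′ end, the terminal oligopyrimidine (TOP) tract. In neurons part of this translation takes place in dendrites and axons. Several ribosomal proteins also act outside the ribosome, among them Rpl5 and Rpl11, which bind the p53 regulator Mdm2.

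The series held 6 one-colour Agilent arrays, 1 per animal, from male Wistar rats: 3 orchidectomized, meaning that the testes had been removed, and 3 sham-operated. Surgery was done at 2 months of age under ketamine and medetomidine in both groups, and the hippocampus was taken 2 weeks later. From each animal 200 ng of total RNA was amplified and labelled with Cy3. Hormone levels were not part of the data analysed here. The labels call the 3 samples of a group biological replicates, so n = 3 per group.

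Values are log2 processed signal minus the log2 75th percentile of the same array, so 0 is the 75th percentile of the array and a difference of 1 is a doubling. Group differences are orchidectomized minus sham, with the standard error (SE) of the limma fit over all tested probes. A probe was tested where the scanner software placed it well above background on every array of at least 1 group. The array labelled sham 2 stood apart: its correlation with the other 5 arrays over all tested probes was 0.803 to 0.813, against 0.987 to 0.996 among those 5. On it 11 of 12 choroid plexus markers lay above all other arrays, with a mean of 4.47 against -4.94 to -3.34, and all 10 glutamatergic neuron markers lay below, with a mean of -6.87 against -0.77 to -0.26. GABAergic interneuron (7 of 7), astrocyte (6 of 6), oligodendrocyte (8 of 8) and microglia (7 of 7) markers were also below all other arrays there. Of the remaining lists, 2 of 5 endothelial markers lay below and 1 above, and 2 of 3 ependymal and 2 of 3 blood markers lay above. Results are therefore given over 6 arrays and without sham 2, which leaves 3 arrays against 2. For a single gene the difference without sham 2 comes first, with its SE and the difference over 6 arrays in parentheses; the sign of the 2 differed in 17 of 79 ribosomal protein genes. In bulk tissue a change in the number of cells of a type and a change in RNA per cell cannot be told apart.

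The sequence around the transcription start was looked up for each gene, because the TOP tract lies there and was not used in choosing the genes. RefSeq promoter entries of the GRCr8 build were found for 65 of the 80 genes. A tract was defined as C followed by at least 4 C or T on the strand that reads like the messenger. One began within 10 bases of the annotated start in 48 of 65 genes (73.8%), against 28.9% of all 33469 promoter entries. Both sides of the start were searched, so some counted tracts ended before it, as in Rps6 and Rpl5. Each of the 65 genes was counted by 1 entry, while the 33469 entries came from 27457 genes. A tract beginning exactly at the annotated start was present in 22 of 65 genes (33.8%) and in 2.63% of all entries; this narrower count was chosen after the sequences had been seen. By class, a tract within 10 bases was found in 24 of 32 large subunit, 17 of 21 small subunit and 2 of 3 stalk genes, and in 5 of 9 paralogs and like genes, of which 0 had it exactly at the start. Mitochondrial ribosomal protein genes held one in 37.0% of 54 entries, initiation factor genes in 27.5% of 40, and elongation factor and other TOP messenger genes in 60.0% of 10. Exactly at the start it was found in 2 of the 54, 0 of the 40 and 0 of the 10. The narrower count thus missed the other TOP messenger genes as well. The windows below run from 10 bases before the annotated start to 20 bases from it, with the tract in capitals as far as it falls in the window; the first 5 have a tract at the start and the last 4, all like genes, have none in reach.
Rplp0: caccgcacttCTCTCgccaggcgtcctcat
Rplp1: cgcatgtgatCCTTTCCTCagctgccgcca
Rps14: ccgtctctctCTTTCCggtggaggagtctg
Rps26: ccgccgggtcCTCTTTCgagtcttggctcc
Rpl22: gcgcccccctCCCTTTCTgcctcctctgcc
Rpl22l1: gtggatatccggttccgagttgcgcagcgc
Rpl39l1: caggccgtcccgctatcctggtgtgtggtc
Rps12l4: ggcacagaatgctggcgcagggtgcagcgt
Rpl27l2: tgctgttgagttgggcaaggtcaggaaacc
These windows lie on GRCr8 at chr12:46718371-46718400 (Rplp0, minus strand), chr8:71290853-71290882 (Rplp1, minus strand), chr18:56498250-56498279 (Rps14, plus strand), chr7:1643385-1643414 (Rps26, minus strand), chr5:168117951-168117980 (Rpl22, plus strand), chr2:113683186-113683215 (Rpl22l1, plus strand), chr10:5966602-5966631 (Rpl39l1, minus strand), chr7:25007010-25007039 (Rps12l4, minus strand) and chr1:162566045-162566074 (Rpl27l2, minus strand). A tract in these letters is a description of the annotated start and not evidence of how a messenger was translated. All 5 tracts shown begin at the first transcribed base, and in each the base just before it is also a pyrimidine. Rps19, Rpl11, Rpl18, Rpl41 and Rplp2 had entries without a tract in reach, so the annotated start of a member of the core set did not always carry one.

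Many of these probes were at the scanner's upper limit, which bears on every level and difference given for them. A spot was flagged as saturated by the scanner software, with a saturation value of 65290 to 65292 in the raw signal, depending on the array. The chosen probe was saturated on all 6 arrays for 21 of the 80 genes, on some arrays for 26 and on no array for 33. All 3 stalk genes were saturated on all 6 arrays, and 25 of 40 large subunit and 19 of 27 small subunit genes were saturated on at least 1 array; none of the 10 paralogs and like genes was. The number of saturated genes per array was 36, 41 and 22 on orchidectomized 1 to 3 and 36, 44 and 45 on sham 1 to 3. The array with the fewest, orchidectomized 3, also had the lowest 75th percentile (10.13 on the log2 scale), and the array with the most, sham 3, had the highest (11.33). Subtracting the percentile therefore placed the ceiling at different heights: the median saturated probe, over all genes, stood at 5.13, 4.86 and 5.83 on orchidectomized 1 to 3 and at 5.13, 5.09 and 4.59 on sham 1 to 3.

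**Figure D1:**
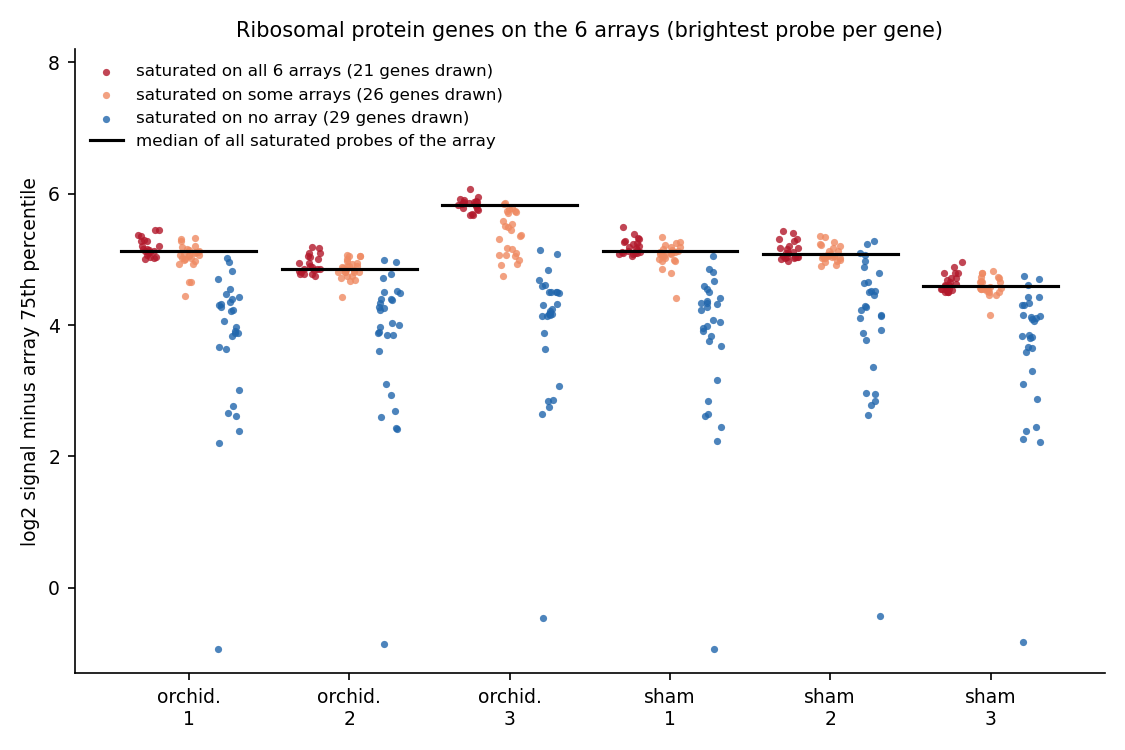
Scaled log2 signal of the ribosomal protein genes on each of the 6 arrays, 1 point per gene and array, coloured by whether the probe was saturated on all, some or none of the arrays; the black bars are the median of all saturated probes of the array. The 76 genes above -1 on every array are drawn and 4 like genes below it are not; the genes saturated on all arrays lie at the bar, which is highest on orchidectomized 3 at 5.83 and lowest on sham 3 at 4.59.

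The stalk genes show what this does to a value. Rplp0, the base of the stalk, measured 5.45, 5.19 and 5.93 on orchidectomized 1 to 3 and 5.38, 5.40 and 4.88 on sham 1 to 3. Rplp1, which pairs with Rplp2 to contact the translation factors, measured 5.29, 5.01 and 5.82 on orchidectomized 1 to 3 and 5.21, 5.16 and 4.65 on sham 1 to 3. Rplp2 measured 5.09, 4.82 and 5.75 on orchidectomized 1 to 3 and 5.09, 5.03 and 4.54 on sham 1 to 3. All 3 genes were highest on orchidectomized 3 and lowest on sham 3, the order of the ceiling itself, and the groups overlapped. Because both groups were saturated, these values are bounds and no fold is given. The same order held for 21 of 21 genes saturated on all 6 arrays, among them Rpl23, which also binds Mdm2, and Rpl41, the smallest ribosomal protein. Rpl41 measured 5.03, 4.77 and 5.81 on orchidectomized 1 to 3 and 5.05, 4.97 and 4.50 on sham 1 to 3, and Rpl23 measured 5.12, 4.84 and 5.68 on orchidectomized 1 to 3 and 5.08, 5.03 and 4.51 on sham 1 to 3. Rpl24, a large subunit protein near the subunit interface, measured 5.16, 4.91 and 5.84 on orchidectomized 1 to 3 and 5.15, 5.09 and 4.61 on sham 1 to 3, and Rps12, a small subunit protein, measured 5.28, 5.05 and 5.86 on orchidectomized 1 to 3 and 5.24, 5.21 and 4.72 on sham 1 to 3.

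No ribosomal protein gene passed the test between the groups. With limma and Benjamini-Hochberg adjustment over the whole table, 0 of 79 tested genes were called over 6 arrays and 0 of 80 without sham 2, where 0% of 24634 and 0% of 25212 tested probes were called. At an unadjusted p under 0.05 the counts were also 0 and 0 genes, against 180 and 682 of all tested probes; the smallest unadjusted p of a gene was 0.187 over 6 arrays and 0.12 without sham 2. The median difference was 0.16 over 6 arrays, with 61 of 79 genes higher in orchidectomized animals, and 0.25 without sham 2, with 76 of 80 higher. Over all tested probes the medians were -0.02 and -0.02, with 48.4% and 44.9% higher. Beyond their spread, 5 of 80 genes had all 3 orchidectomized values above both sham values without sham 2 (all tested probes, 6.24%) and 1 had all values below (10% of all tested probes). Over 6 arrays the counts were 0 of 79 above (3.26%) and 1 of 79 below (4.74%). The shares of genes that did not overlap were thus near or under those of all tested probes, although most genes leaned the same way.

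That lean was steepest where probes were saturated. Without sham 2 the median difference was 0.39 for the 21 genes saturated on all 6 arrays, 0.27 for the 26 saturated on some and 0.12 for the 33 saturated on none. Over 6 arrays the same medians were 0.32, 0.17 and 0.008, and 17 of 32 never-saturated genes were higher, against 29 of 33 without sham 2. Among tested probes not named as ribosomal protein genes, 121 were saturated on all 6 arrays. They gave a median of 0.41 without sham 2, all 121 being higher. Probes without a gene name were not left out of the 121, so some may also measure ribosomal protein RNA. The saturated ribosomal protein genes thus lay where these other saturated probes lay. Among the brightest 10% of tested probes, the 1876 saturated on no array had a median of 0.05 without sham 2, with 63.8% higher. Among never-saturated ribosomal protein genes, 20 of 33 were highest on orchidectomized 3 and 23 of 33 lowest on sham 3. In 14 genes the raw signal stayed under 50% of the saturation value on all arrays. Their medians were -0.01 over 6 arrays and 0.14 without sham 2, with 10 of 14 higher in the latter. Most of the 14 were paralogs or like genes, of which Rpl39l1 and Rpl27l2 were not well above background on every array. The others were Rpl15 (0.13), Rpl23a (-0.05), Rpl39 (0.24), Rps25 (0.29) and Rps26 (0.29), each without sham 2. By role, the never-saturated medians without sham 2 were 0.10 for 15 large subunit genes (14 higher), 0.14 for 8 small subunit genes (8 higher) and 0.12 for the 10 paralogs and like genes (7 higher).

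**Figure D2:**
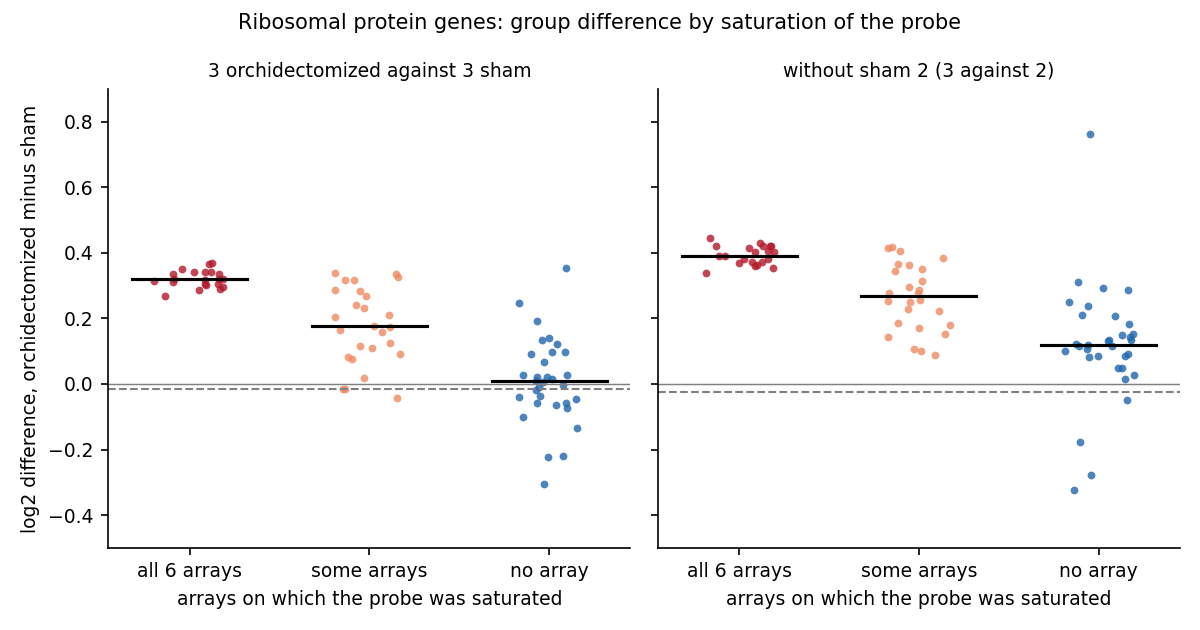
Log2 difference, orchidectomized minus sham, of each tested ribosomal protein gene, by the number of arrays on which its probe was saturated, over 6 arrays (left) and without sham 2 (right). Black bars are class medians, 0.32, 0.17 and 0.008 on the left and 0.39, 0.27 and 0.12 on the right; the dashed line is the median of all tested probes.

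The arrays also differed by slide and scan day. The slides were shared by orchidectomized 1 and 2 and by orchidectomized 3 and sham 1, while sham 2 and sham 3 had slides of their own; sham 2 and 3 were scanned on another day than the other 4 arrays. On the day that held both groups, the 3 orchidectomized arrays minus sham 1 gave a median of 0.09 over the 80 genes (55 higher) and 0.006 over the 33 never-saturated ones (17 higher). On the slide that held both groups, orchidectomized 3 minus sham 1 gave 0.33 (64 higher) and 0.14 (20 higher). Against sham 3 alone, the medians were 0.46 (77 higher) and 0.18 (30 higher). For the never-saturated genes the mean of the 3 orchidectomized arrays was thus near sham 1 and above sham 3, while orchidectomized 3 alone was above sham 1. Quantile normalization, which gives all arrays the same distribution, left medians of 0.04 over the 80 genes and 0.06 over the never-saturated ones without sham 2.

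A comparison within genes was possible for 11 genes that had a probe saturated on 5 or 6 arrays and another saturated on none. The saturated probe gave the larger difference in 11 of 11 genes without sham 2, with medians of 0.34 against 0.14. Over 6 arrays it did so in 10 of 11, the exception being Rpl35 (0.31 against 0.39), with medians of 0.27 against -0.01. The unsaturated probe was higher in orchidectomized animals for 9 of 11 genes without sham 2 and 5 of 11 over 6 arrays. For Rpl6, a large subunit protein, the saturated probe gave 0.42 and the other -0.05 without sham 2, and 0.34 and -0.18 over 6 arrays; the unsaturated probe measured 4.30, 4.27 and 4.17 on orchidectomized 1 to 3 and 4.41, 4.69 and 4.19 on sham 1 to 3. Rpl8, which lies in the core of the large subunit, gave 0.31 and 0.03 without sham 2 and 0.24 and -0.01 over 6 arrays, with the unsaturated probe at 4.52, 4.55 and 4.33 on orchidectomized 1 to 3 and 4.45, 4.57 and 4.42 on sham 1 to 3. In both genes the unsaturated orchidectomized and sham values overlapped. Without sham 2, Rpl6, Rps15a and Rpl10a (-0.05 and 0.02) were the 3 of 45 genes with several probes whose probes differed in sign; over 6 arrays 16 of 45 did.

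**Figure D3:**
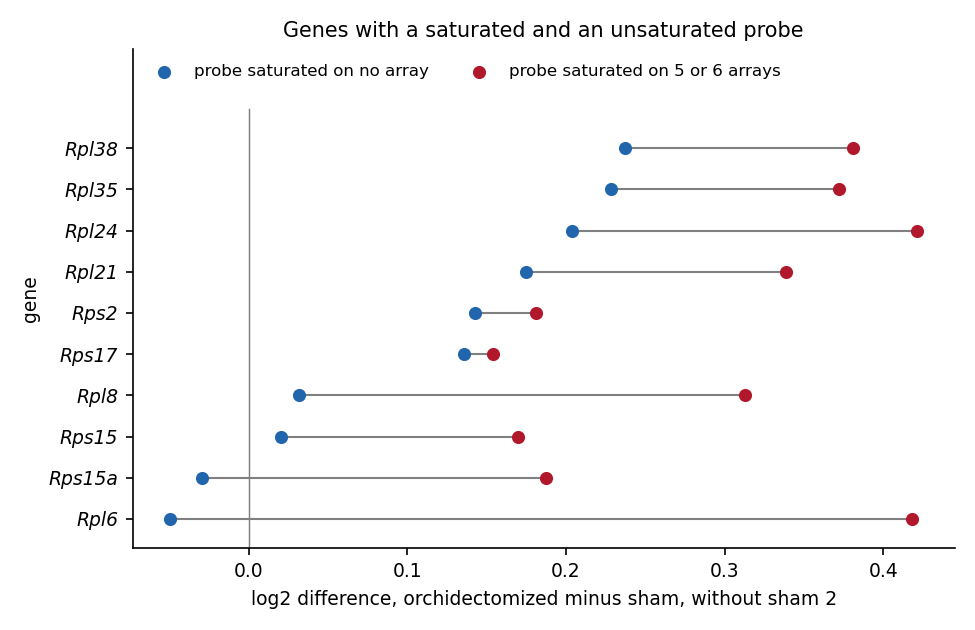
Log2 difference without sham 2 for 10 of the 11 genes with both a probe saturated on 5 or 6 arrays (red) and a probe saturated on no array (blue), joined by a line per gene. The red point lies to the right of the blue one in all 10; the medians over the 11 genes are 0.34 and 0.14.

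Among small subunit genes saturated on no array, Rps26 and Rps14 had orchidectomized values above both sham 1 and sham 3 at the chosen probe. Rps26, a protein at the channel where the messenger leaves the ribosome, measured 2.67, 2.69 and 2.86 on orchidectomized 1 to 3 and 2.65, 2.95 and 2.26 on sham 1 to 3; the difference was 0.29 (SE 0.17; 0.12 over 6 arrays). Rps14, a protein of the small subunit's platform, measured 4.97, 4.96 and 5.14 on orchidectomized 1 to 3 and 4.85, 5.10 and 4.69 on sham 1 to 3. Its difference was 0.25 (SE 0.14; 0.14 over 6 arrays). In both genes sham 3 was the lowest array. Sham 2 lay above at least 1 orchidectomized array in each, so the groups overlapped over 6 arrays. A second Rps14 probe was also saturated on no array. It measured 4.37, 4.36 and 4.68 on orchidectomized 1 to 3 and 4.52, 4.58 and 4.19 on sham 1 to 3. There sham 1 lay above orchidectomized 1 and 2, and the difference was 0.11 without sham 2 and 0.04 over 6 arrays. The largest small subunit difference without sham 2 among never-saturated genes was that of Rps25, which viral internal entry sites depend on, at 0.29 (SE 0.25; 0.19 over 6 arrays), where orchidectomized 3 stood at 3.08 and the other 2 orchidectomized arrays lay below sham 1. Neither this nor the other 2 genes passed the test (adjusted p = 0.988 by limma for each).

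Rps6, the target of the S6 kinases, measured 4.47, 4.51 and 4.84 on orchidectomized 1 to 3 and 4.50, 5.06 and 4.43 on sham 1 to 3. Its difference was 0.14 (SE 0.16; -0.06 over 6 arrays), and orchidectomized 1 lay below sham 1. Rps19, the gene most often mutated in Diamond-Blackfan anaemia, measured 5.02, 4.998 and 5.09 on orchidectomized 1 to 3 and 5.05, 5.28 and 4.75 on sham 1 to 3. Its difference was 0.13 (SE 0.15; 0.01 over 6 arrays). In Rps19 both orchidectomized 1 and 2 were below sham 1, and sham 3 was the lowest array in Rps6 and Rps19. Rps3, which lines the channel where the messenger enters, was saturated on 4 arrays and measured 5.32, 5.04 and 5.73 on orchidectomized 1 to 3 and 5.34, 5.27 and 4.79 on sham 1 to 3. Rps27a, which is made as a fusion with ubiquitin, was saturated on 1 array and measured 4.97, 4.97 and 5.58 on orchidectomized 1 to 3 and 4.97, 5.36 and 4.82 on sham 1 to 3. Its 2 probes gave 0.28 and 0.29 without sham 2 and 0.12 and 0.17 over 6 arrays, and orchidectomized 3 was the highest array at both probes. Rps15a was saturated on 5 arrays at its brighter probe; its 2 probes gave 0.19 and -0.03 without sham 2 and 0.12 and -0.04 over 6 arrays.

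Among large subunit genes, Rpl27 and Rpl18 had all 3 orchidectomized values above sham 1 and sham 3 at the chosen probe. Rpl27 measured 4.23, 4.33 and 4.50 on orchidectomized 1 to 3 and 4.22, 4.88 and 4.06 on sham 1 to 3; orchidectomized 1 and sham 1 were nearly equal, and the difference was 0.21 (SE 0.15; -0.04 over 6 arrays). Rpl18, saturated on 1 array, measured 4.44, 4.43 and 4.75 on orchidectomized 1 to 3 and 4.42, 4.99 and 4.16 on sham 1 to 3. Its difference was 0.25 (SE 0.17; 0.02 over 6 arrays). In both genes sham 2 was the highest of the 6 arrays, so the differences over 6 arrays were near 0. Rpl39, a short protein of the exit tunnel, had the largest difference among never-saturated large subunit genes, 0.24 (SE 0.16; 0.13 over 6 arrays), with sham 1 above orchidectomized 1.

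Rpl5, which carries the 5S ribosomal RNA into the large subunit with Rpl11, measured 3.66, 3.89 and 4.14 on orchidectomized 1 to 3 and 3.76, 4.24 and 3.83 on sham 1 to 3, and orchidectomized 1 was the lowest array. Its difference was 0.10 (SE 0.18; -0.05 over 6 arrays). Rpl11 was saturated on 5 arrays and measured 5.19, 4.90 and 5.51 on orchidectomized 1 to 3 and 5.12, 5.08 and 4.55 on sham 1 to 3. Rpl22, an RNA-binding protein at the surface of the large subunit, measured 3.89, 3.997 and 4.51 on orchidectomized 1 to 3 and 3.99, 4.46 and 3.85 on sham 1 to 3, with a difference of 0.21 (SE 0.22; 0.03 over 6 arrays) and orchidectomized 3 as the highest array. Rpl10, a protein added late in assembly, was saturated on 5 arrays and measured 5.07, 4.81 and 5.35 on orchidectomized 1 to 3 and 5.13, 5.05 and 4.57 on sham 1 to 3. Rpl3, which reaches to the peptidyl transferase centre, was saturated on 5 arrays at 5.13, 4.87 and 5.31 on orchidectomized 1 to 3 and 5.08, 5.05 and 4.57 on sham 1 to 3. Rpl4, whose loop lines the exit tunnel, was saturated on 2 arrays at 5.21, 5.06 and 5.37 on orchidectomized 1 to 3 and 5.18, 5.21 and 4.73 on sham 1 to 3. In all 3 genes sham 3 was lowest and orchidectomized 3 highest, and sham 1 lay within the orchidectomized range.

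Several large subunit genes had a difference without sham 2 smaller than its SE, among them Rpl12, Rpl28 and Rpl36. The values of 4 more such genes follow. Rpl10a measured 4.83, 4.78 and 4.59 on orchidectomized 1 to 3 and 4.81, 4.98 and 4.62 on sham 1 to 3. Its difference was 0.02 (SE 0.15; -0.07 over 6 arrays). Rpl27a measured 4.27, 4.27 and 4.30 on orchidectomized 1 to 3 and 4.41, 4.27 and 4.10 on sham 1 to 3, a difference of 0.03 (SE 0.14; 0.02 over 6 arrays). Rpl23a was the only large subunit gene lower in orchidectomized animals without sham 2, at -0.05 (SE 0.13; -0.04 over 6 arrays), with values of 2.76, 2.93 and 2.75 on orchidectomized 1 to 3 and 2.85, 2.84 and 2.88 on sham 1 to 3. Rpl7a measured 4.33, 4.22 and 4.16 on orchidectomized 1 to 3 and 4.28, 4.63 and 4.10 on sham 1 to 3 and differed by 0.05 (SE 0.13; -0.10 over 6 arrays).

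The 10 paralogs and like genes were saturated on no array, and 4 of them, Rps12l4, Rpl3l, Rpl39l1 and Rpl27l2, had scaled values below 0 on all arrays. Rpl22l1, the paralog of Rpl22, measured 3.88, 3.85 and 4.16 on orchidectomized 1 to 3 and 3.83, 4.29 and 3.81 on sham 1 to 3. All 3 orchidectomized values were above sham 1 and sham 3, and sham 2 was the highest array. The difference was 0.15 (SE 0.15, and -0.01 over 6 arrays). At a second, dimmer Rpl22l1 probe, orchidectomized 2 (-1.01) and sham 2 (-1.08) lay below sham 1 (-0.98). The differences there were 0.09 without sham 2 and 0.10 over 6 arrays. Rps12l4 was the gene whose groups did not overlap in the other direction: it measured -5.55, -5.48 and -6.20 on orchidectomized 1 to 3 and -5.47, -5.47 and -5.38 on sham 1 to 3, lower on all 3 orchidectomized arrays, with a difference of -0.32 (SE 0.25; -0.30 over 6 arrays). Orchidectomized 3 was -6.20, while the other 2 orchidectomized arrays lay just below the sham arrays. Rpl3l, a muscle-enriched paralog of Rpl3, measured -5.19, -5.29 and -4.94 on orchidectomized 1 to 3 and -4.85, -5.55 and -5.07 on sham 1 to 3. Its difference was -0.18 (SE 0.16; 0.02 over 6 arrays). Near-identical copies of these genes exist in the rat genome, so a probe for a like gene may also bind RNA of its parent gene, and the split between them is uncertain.

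Rpl39l1 had the widest spread of the 80 genes: -4.53, -5.18 and -5.70 on orchidectomized 1 to 3 and -3.43, -2.95 and -8.37 on sham 1 to 3. On sham 3 it was not well above background, sham 1 and 2 were the highest arrays, and the difference, 0.76 (SE 1.38; -0.22 over 6 arrays), was smaller than its SE without sham 2 and of the other sign over 6 arrays. It passed the filter through the orchidectomized group, and Rpl27l2 passed it only without sham 2, through sham 1 and 3. Rpl27l2 was well above background on 4 arrays and measured -7.87, -7.35 and -6.99 on orchidectomized 1 to 3 and -6.84, -9.69 and -7.42 on sham 1 to 3, with a difference of -0.28 (SE 0.31; not tested over 6 arrays). Rpl37l1 measured 3.64, 3.61 and 4.14 on orchidectomized 1 to 3 and 3.68, 3.36 and 3.30 on sham 1 to 3, a difference of 0.31 (SE 0.23; 0.35 over 6 arrays), with orchidectomized 1 and 2 below sham 1; its 3 probes gave differences of 0.31 to 0.32 without sham 2 and 0.35 to 0.39 over 6 arrays. No probe was named here for Rpl26, Rpl7l1, Rpl10l, Rpl26l1, Rpl36al, Rpl39l, Rps4x-ps or Rps27l. Rplp1l1 measured 4.06, 3.97 and 4.22 on orchidectomized 1 to 3 and 4.07, 4.15 and 3.83 on sham 1 to 3. Rps4y2 measured 2.21, 2.43 and 2.84 on orchidectomized 1 to 3 and 2.23, 2.78 and 2.39 on sham 1 to 3. Rps4x measured 2.61, 2.60 and 2.64 on orchidectomized 1 to 3 and 2.61, 2.97 and 2.45 on sham 1 to 3, and the groups overlapped in all 3.

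**Figure D4:**
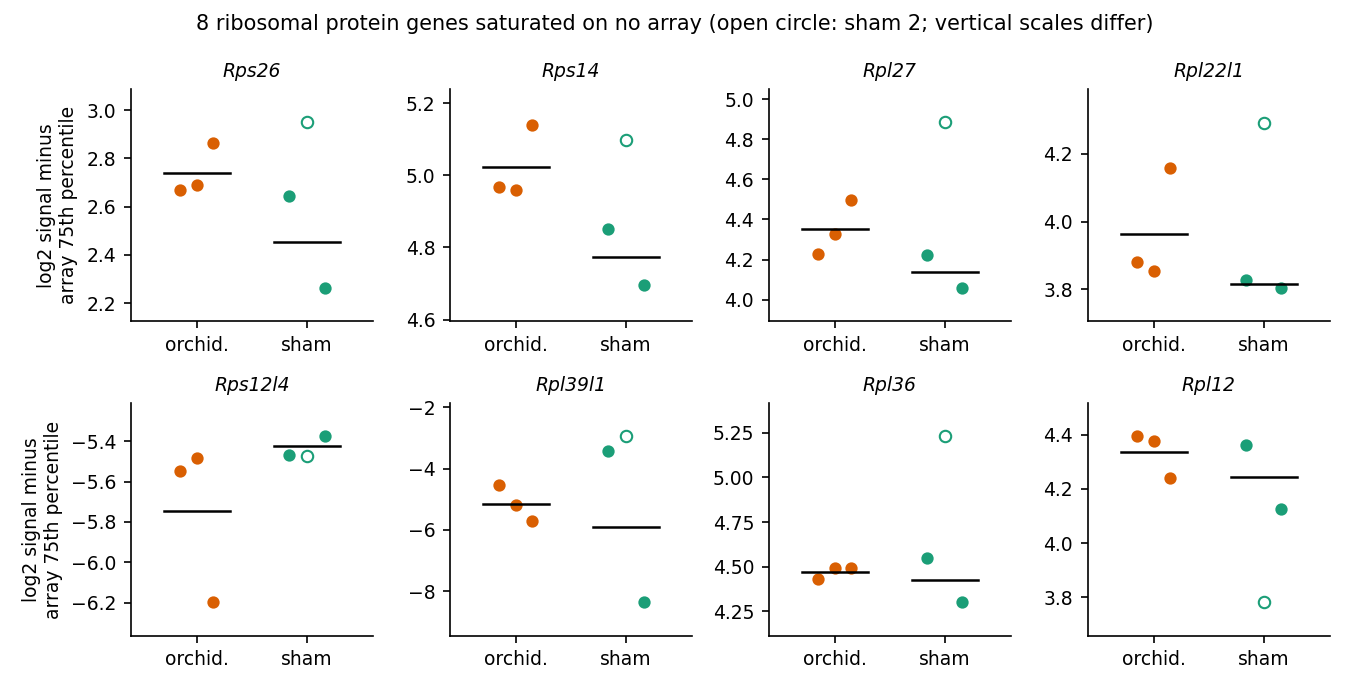
Scaled log2 signal of 8 ribosomal protein genes saturated on no array, 1 point per animal, with orchidectomized values in orange and sham values in green, the open circle being sham 2. Bars are means of the 3 orchidectomized arrays and of sham 1 and 3; vertical scales differ between panels, and the bars differ by between -0.32 (Rps12l4) and 0.76 (Rpl39l1).

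On the array labelled sham 2, 25 of the 33 never-saturated genes lay above the median of the other 5 arrays. Of the 33, 16 lay above all other 5 arrays (48.5%), 3 below (9.09%) and 14 within, with a median deviation of 0.27 from the median of the other arrays. Of all 24540 tested probes saturated on no array, 39.8% lay above and 41.2% below, with a median of -0.01. Among the 1876 unsaturated probes of the brightest 10%, 45.4% lay above and 32.4% below, with a median of 0.15. The rise was not particular to ribosomal protein genes. Of 65 never-saturated mitochondrial ribosomal protein genes 42 lay above and 11 below, with a median of 0.35. Of 44 never-saturated initiation factor genes 27 lay above and 9 below, with a median of 0.30. Of 26 ribosome biogenesis genes 10 lay above and 10 below. Rpl36 measured 4.43, 4.49 and 4.49 on orchidectomized 1 to 3 and 4.55, 5.23 and 4.30 on sham 1 to 3, so that sham 2 was 0.74 above the median of the others. Rpl36al1 measured 3.02, 3.10 and 3.63 on orchidectomized 1 to 3 and 3.17, 3.88 and 3.10 on sham 1 to 3, 0.79 above. In the other direction, Rpl12, part of the base of the stalk, measured 4.39, 4.38 and 4.24 on orchidectomized 1 to 3. On sham 1 to 3 it measured 4.36, 3.78 and 4.13, with sham 2 below the other 5 arrays. At a dimmer Rpl12 probe sham 2 stood at 2.75, within the range of the others (deviation 0.02). Rpl28 stood at 4.69, 4.72 and 4.50 on orchidectomized 1 to 3 and 4.68, 4.51 and 4.43 on sham 1 to 3. There sham 2 lay within the range of the others. A dimmer Rpl28 probe had sham 2 above all other arrays (3.31, deviation 0.33). The dimmest Rpl28 probe had it within their range (-4.62, deviation -0.05). In both genes the position of sham 2 thus depended on the probe. The deviations of Rpl39l1 (2.24) and Rpl27l2 (-2.33) were the widest and belonged to dim probes. The genes saturated on all 6 arrays had a median deviation of -0.03 there and none lay outside the range of the other arrays. The part that the cell type markers of that array have in these deviations was not tested.

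**Figure D5:**
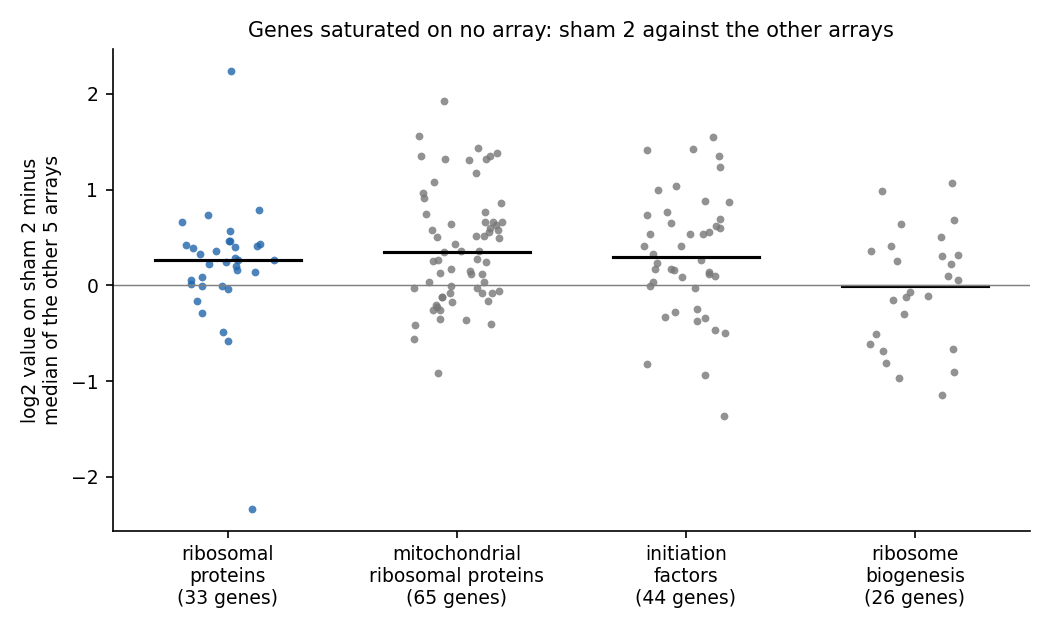
Scaled log2 value on sham 2 minus the median of the other 5 arrays for genes saturated on no array, 1 point per gene, for ribosomal proteins (blue) and 3 other lists (grey); bars are medians. The median is 0.27 for the 33 ribosomal protein genes and 0.35 for 65 mitochondrial ribosomal protein genes, and 2 dim like genes lie beyond 2 in either direction.

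Other genes of translation were read from the same fit, and 0 genes of any list were called. The name rule misses some ribosomal proteins, among them Rpsa, Fau and Rack1. Rpsa, the laminin-binding small subunit protein, measured 3.97, 3.98 and 4.44 on orchidectomized 1 to 3 and 3.90, 4.54 and 3.82 on sham 1 to 3, a difference of 0.27 (SE 0.19; 0.05 over 6 arrays). Fau, made as a fusion with a ubiquitin-like protein, was saturated on 5 arrays at 5.38, 5.12 and 5.82 on orchidectomized 1 to 3 and 5.34, 5.35 and 4.83 on sham 1 to 3. Rack1, a scaffold protein on the small subunit, measured 2.59, 2.56 and 2.78 on orchidectomized 1 to 3 and 2.59, 3.41 and 2.47 on sham 1 to 3, with sham 2 above all other arrays. The 66 mitochondrial ribosomal protein genes, which serve the ribosome of mitochondria, had medians of -0.10 over 6 arrays (19 higher) and 0.03 without sham 2 (42 higher). Of these, Mrpl10 was saturated on all 6 arrays, so no fold is given, and Mrps5 differed by -0.18 (SE 0.14; -0.04 over 6 arrays).

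Elongation factor and TOP messenger genes numbered 12, with a median of 0.18 without sham 2 (8 higher) and 0.10 over 6 arrays (8 higher). Eef1a1, which delivers transfer RNA to the ribosome, was saturated on 4 arrays and Tpt1 on 5. The 10 genes saturated on no array had a median of 0.10 without sham 2 (6 higher) and 0.08 over 6 arrays (6 higher). Eef1b2, part of the exchange factor of Eef1a1, measured 4.47, 4.51 and 5.10 on orchidectomized 1 to 3 and 4.48, 4.75 and 4.37 on sham 1 to 3, and Eef2, which moves the ribosome along the messenger, measured 3.87, 3.74 and 4.22 on orchidectomized 1 to 3 and 3.67, 4.17 and 3.80 on sham 1 to 3; in both, orchidectomized 3 was the highest of all arrays. The 45 initiation factor genes had medians of -0.11 (13 higher) and -0.02 (17 higher), and in 6 of 45 all orchidectomized values lay below sham 1 and 3, near the 10% of all tested probes; over 6 arrays the count was 4 (all tested probes, 4.74%). Eif3e, a subunit of the factor that binds the small subunit, measured -0.53, -0.39 and -0.61 on orchidectomized 1 to 3 and -0.21, 0.16 and -0.33 on sham 1 to 3, a difference of -0.24 (SE 0.14; -0.38 over 6 arrays). Eif2ak3, the kinase that slows initiation under endoplasmic reticulum stress, measured -1.87, -1.82 and -2.38 on orchidectomized 1 to 3 and -1.76, -1.74 and -1.64 on sham 1 to 3, a difference of -0.33 (SE 0.21; -0.31 over 6 arrays), with orchidectomized 3 lowest.

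The 26 ribosome biogenesis genes had a median of 0.03 without sham 2 (14 higher) and 0.002 over 6 arrays (13 higher). Gtpbp4, a large subunit assembly GTPase, measured -1.44, -1.37 and -1.05 on orchidectomized 1 to 3 and -1.57, -0.80 and -1.61 on sham 1 to 3, a difference of 0.30 (SE 0.16; 0.04 over 6 arrays), and Polr1d, a subunit of RNA polymerases I and III, measured 2.42, 2.54 and 2.96 on orchidectomized 1 to 3 and 2.34, 2.78 and 2.33 on sham 1 to 3, a difference of 0.31 (SE 0.19; 0.16 over 6 arrays). Polr1a, the largest subunit of RNA polymerase I, was lower on all 3 orchidectomized arrays than on sham 1 and 3, with a difference of -0.20 (SE 0.14; -0.14 over 6 arrays). The 7 S6 kinase genes had a median of 0.003 without sham 2 (4 higher) and -0.16 over 6 arrays (2 higher); Rps6kb1, which encodes the main kinase of Rps6, measured -0.82, -0.73 and -0.55 on orchidectomized 1 to 3 and -0.88, -0.53 and -0.71 on sham 1 to 3. The 11 growth control genes had a median of 0.01 (6 higher) and 0.07 (6 higher). Rptor, the substrate-binding mTOR partner, measured 2.29, 2.30 and 2.81 on orchidectomized 1 to 3 and 2.26, 1.15 and 2.25 on sham 1 to 3. Orchidectomized 1 and 2 lay just above sham 1 and sham 3. Only Rptor of the 11 had all orchidectomized values above the sham values, and it was not called. Among all tested probes the share with such values was 3.26% over 6 arrays and 6.24% without sham 2. Tsc1 measured -5.22, -5.55 and -4.99 on orchidectomized 1 to 3 and -4.51, -4.88 and -5.26 on sham 1 to 3 and Myc, a transcription factor that drives ribosome production, -2.35, -2.16 and -2.91 on orchidectomized 1 to 3 and -2.22, -5.14 and -2.09 on sham 1 to 3; neither passed the test.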

How the data were processed

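Each array was read with Agilent Feature Extraction 10.5.1.1, per the file headers, whose deposited processed signal is a background-corrected intensity per spot. Set against the scanner values, the table of log2 values deposited by the authors differed from log2 processed signal by 1 constant per array. Control and outlier spots were left out, spots of a probe averaged, and each array's log2 75th percentile subtracted. A probe flagged well above background throughout at least 1 group entered the test with limma 3.58.1 (R 4.3.3; lmFit and eBayes), with Benjamini-Hochberg adjustment over all tested probes and a threshold of 0.05; the script was tested on simulated data. Symbols came from RefSeq accessions matched to GRCr8. The ribosomal protein genes, the other lists and the genes to be named (by non-overlap, size of difference, deviation on sham 2, role, or probes that disagree) were chosen with earlier results of these data known. Saturation classes were added after the data were seen. No separate extraction or culture is recorded beyond the biological replicate label, so p-values measure the spread between these samples. The number of arrays limits the precision. Alternatives covered scaling, background (normexp on the median spot signal), filter, variance model, array weights, slide, scan day, replicate block and each array left out. The values of some single genes are not reported here.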

Additional observations from a re-analysis of the deposited data

How the results depend on the processing

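No ribosomal protein gene was called under any alternative run. In the whole table some settings gave calls. Over 6 arrays 1 probe was called with quantile normalization, 1 with array weights and 2 with slide as a random block, against 0 otherwise. Without sham 2, 2 were called with quantile normalization, 1 with median scaling, 18 with the authors' deposited values, 6 with array weights, 1 with slide as a random block and 10 with scan day as a block. Leaving out 1 more array gave 0 to 251, the 251 without sham 3 and 22 without sham 1, where the lone sham array is assumed to vary like the orchidectomized ones; the cause was not tested. The median difference over 6 arrays ran from 0.02 to 0.34 for all ribosomal protein genes and from -0.08 to 0.14 for those saturated on no array. Without sham 2 it ran from 0.04 to 0.46 and from 0.006 to 0.18. It was 0.46 and 0.18 without sham 1, 0.09 and 0.006 without sham 3, and 0.10 and 0.06 without orchidectomized 3. Scaling to the array median moved the median of all tested probes over 6 arrays to -0.10, and 9 of 32 never-saturated genes were then higher, against 17. Same-numbered samples did not deviate together (correlations 0.03, -0.02 and -0.02). The deviations were taken from group means that included sham 2, which stood apart, so they cannot decide whether the numbers pair the samples. With the replicate block the medians were 0.16 over 6 arrays and 0.32 without sham 2, with 0 probes called in each. Naming probes by accession was the only naming possible and so had no alternative. Saturated spots give bounds, and probes not well above background give no level.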
